A study of Mus musculus with 18 samples.

Results

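The comparison described here set islets of chow-fed mice lacking TRAF2 in beta cells against islets of chow-fed control littermates, on 6 of the 18 arrays of the study. The members were taken from the sample titles: 3 arrays of chow TRAF2 knockouts and 3 of chow controls. Knockouts had the genotype RIPCre; TRAF2loxP/loxP, in which the rat insulin promoter drives Cre recombinase and so aims the deletion at beta cells. Controls were floxed littermates whose floxed gene and Cre status the labels leave unsaid, so loss of TRAF2 and presence of the Cre transgene cannot be told apart. All mice were on a C57BL/6 background and 16 weeks old, of both sexes, and received 1 diet or the other with no further agent. The 12 other arrays are 3 chow TRAF3 knockouts (RIPCre; TRAF3loxP/loxP) and 3 each of controls, TRAF2 knockouts and TRAF3 knockouts fed a high-fat diet (HFD, 45% of energy as fat) for 8 weeks from 8 weeks of age. Some of these serve below as the same contrast in other samples or as the other knockout. Total RNA of whole islets, 250 ng per sample, was labelled for single-colour whole-transcript arrays. Nothing in the labels ties a sample to 1 animal, so the p-values rest on the spread from sample to sample, which may be technical in part. Values are log2 expression values, and in whole islets a lower share of a cell type and less RNA per cell cannot be told apart.

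TRAF2 is an adaptor and ubiquitin ligase of receptors of the tumour necrosis factor (TNF) family. With TRAF3 and the inhibitors of apoptosis Birc2 and Birc3 it forms the complex that marks NF-kB inducing kinase (NIK, gene Map3k14) for degradation. Without that complex NIK accumulates and drives the non-canonical NF-kB pathway, in which the Nfkb2 precursor is processed and joins Relb. In beta cells, placental lactogen, prolactin and growth hormone act through JAK2 and STAT5, and in pregnancy this raises serotonin synthesis and a known set of islet genes. The study asked what constant NIK activity does in beta cells. Some lines with Cre under the insulin promoter also carry a human growth hormone minigene, and the labels do not say whether this line does.

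Promoter sequences are shown for 4 genes that rose in the knockouts, because they hold the motifs of the transcription factors at the end of these pathways. Each window runs from 250 bases before the RefSeq start site to 50 bases after it on build GRCm38.p6 and is written 5′ to 3′ on the gene's strand. Capitals mark a STAT motif, TTCNNNGAA, in Cish and Ivd, and the NF-kB motif in Tnfrsf9 and Tnip1, where overlapping matches join into 1 block. The STAT motif also stood in Tnfrsf9, from -136, and in Tnip1, from -199, which are left in lower case, so the motifs do not divide these genes by pathway.
Cish, chr9:107296409-107296708, plus strand: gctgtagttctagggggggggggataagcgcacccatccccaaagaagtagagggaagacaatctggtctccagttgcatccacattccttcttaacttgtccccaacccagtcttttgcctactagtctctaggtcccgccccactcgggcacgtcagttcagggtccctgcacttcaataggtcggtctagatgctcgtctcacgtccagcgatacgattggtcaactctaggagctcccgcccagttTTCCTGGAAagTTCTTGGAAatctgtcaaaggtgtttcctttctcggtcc
Ivd, chr2:118861744-118862043, plus strand: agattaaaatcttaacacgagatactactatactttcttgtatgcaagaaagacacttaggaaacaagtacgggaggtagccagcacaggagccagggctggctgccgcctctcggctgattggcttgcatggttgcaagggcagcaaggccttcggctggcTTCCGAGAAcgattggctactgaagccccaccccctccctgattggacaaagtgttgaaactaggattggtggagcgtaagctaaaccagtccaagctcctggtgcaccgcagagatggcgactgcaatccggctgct
Tnfrsf9, chr4:150927749-150928048, plus strand: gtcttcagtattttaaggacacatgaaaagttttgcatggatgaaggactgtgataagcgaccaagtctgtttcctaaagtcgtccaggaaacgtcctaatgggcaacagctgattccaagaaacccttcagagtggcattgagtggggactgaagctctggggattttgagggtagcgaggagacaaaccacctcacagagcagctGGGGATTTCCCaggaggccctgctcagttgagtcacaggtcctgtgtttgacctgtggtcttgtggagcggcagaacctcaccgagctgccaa
Tnip1, chr11:54962891-54963190, minus strand: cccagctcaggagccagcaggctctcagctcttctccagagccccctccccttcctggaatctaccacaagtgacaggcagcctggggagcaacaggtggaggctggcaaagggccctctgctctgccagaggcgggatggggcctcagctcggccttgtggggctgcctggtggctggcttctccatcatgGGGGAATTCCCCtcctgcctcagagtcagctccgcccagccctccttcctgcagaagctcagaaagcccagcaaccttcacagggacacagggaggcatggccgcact

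Cish encodes a feedback inhibitor of cytokine receptor signalling and had 2 matches, at positions 1 and 12 counted from the start site. The match of Ivd, an enzyme of leucine breakdown, began at -88. In Tnfrsf9, a costimulatory receptor of the TNF receptor family, the block began at -43, and in Tnip1, an inhibitor of NF-kB activation, at -58. RefSeq promoters were matched for 39 of the 62 genes higher in the knockouts. A STAT motif on either strand stood in 9 of these 39 genes (23.1%), against 9.13% of the 16918 measured genes with a promoter and 8.3% of all 32851 promoters. The NF-kB motif stood in 7 of them (17.9%), against 10.6% of the measured genes and 8.46% of all promoters. Among the 8 pregnancy and lactogen responsive genes with a promoter, 3 held the STAT motif (37.5%), and among 15 canonical NF-kB genes 10 held the NF-kB motif (66.7%). A match is a run of letters in this window and was not tested as a binding site.

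Some arrays stood apart from their group. Of the 62 genes higher in the knockouts, control 3 had the highest control value in 52. Its median position was 32.6% of the way from the mean of controls 1 and 2 to the knockout mean, with quartiles at 19.9% and 43.5%, and it was more than 50% of the way in 11 genes. Control 3 and knockout 2 were each other's closest array across genes (r = 0.9923), and knockout 1 was closest to chow TRAF3 knockout 1 (r = 0.9871). Control 3 was nearly as close to control 2 (r = 0.991). Control 3 and knockout 2 also had the highest acinar marker scores, 0.533 and 0.4, against -1.1 to 0.138 in the other controls and TRAF2 knockouts. Whether acinar content made these arrays alike was not tested. These values do not settle the genotype label of control 3, which no measurement here checks. Control 3 is kept below as labelled, so each control mean and fold change includes it unless a fit without it is named. Knockout 1 had a lymphocyte marker score of 1.64, against -0.32 and -0.80 in knockouts 2 and 3 and -0.78 to -0.47 in the controls. By Xist, each group had 1 female array, which was number 1 (11.28 in control 1 and 10.57 in knockout 1). Control 1 had a ductal marker score of -0.825, below the 0.333 and 0.220 of controls 2 and 3.

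Beta cell markers were present in all 6 arrays. Ins2, which encodes insulin, measured 11.25 in knockout 1 and 11.84 to 12.07 on the other 5 arrays, and Iapp, a peptide released with insulin, lay between 12.67 and 12.86. Knockout 1 read lowest for Slc2a2, through which mouse beta cells take up glucose, at 8.49 against 10.84 and 11.16 in the other knockouts and 10.93 to 11.99 in controls. It also read lowest for Pdx1 (8.10) and Mafa (8.08), transcription factors of mature beta cells. Array medians lay between 4.81 and 4.92, and no level below which a gene counts as undetected was set. List scores average, over the genes of a list, the log2 deviation of each gene from its own mean on 18 arrays.

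**Figure D1:**
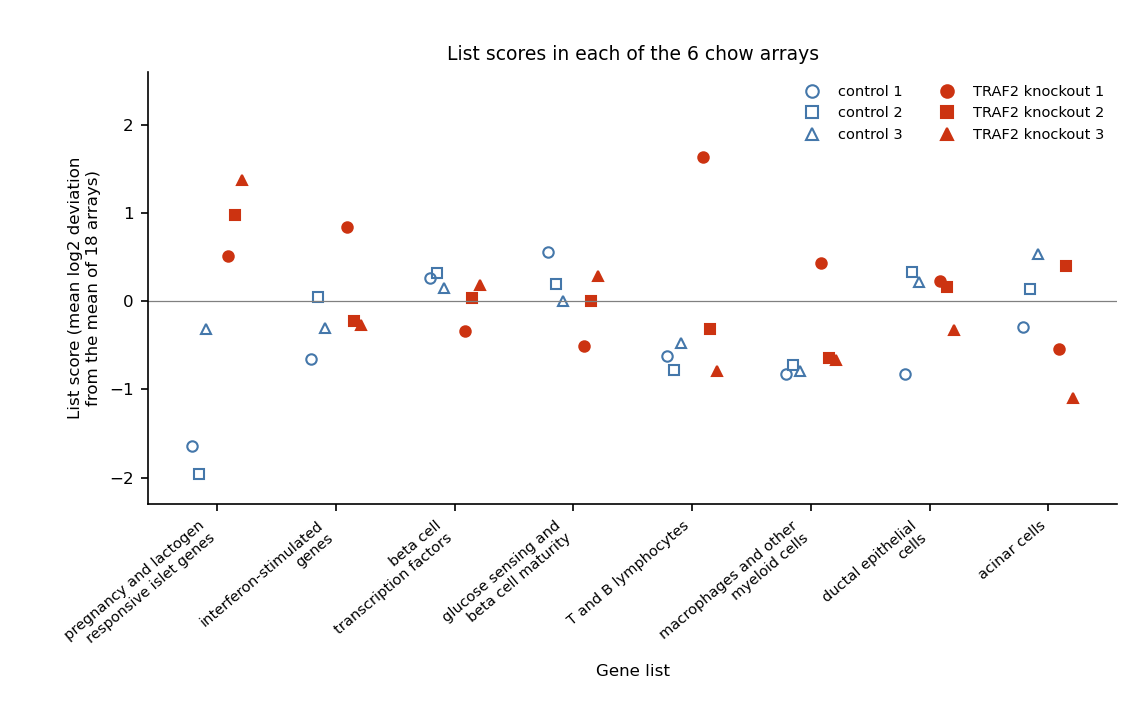
List scores (vertical axis, mean log2 deviation from the mean of 18 arrays) for 8 gene lists in each chow array, with open blue symbols for controls and filled red symbols for TRAF2 knockouts. The pregnancy and lactogen score is 0.514 to 1.38 in knockouts and -1.96, -1.64 and -0.319 in controls, where control 3 is the highest, and knockout 1 stands apart at 1.64 for lymphocytes.

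Most genes that passed at an adjusted p under 0.05 in chow TRAF2 knockout islets against control were genes that rose. Genes of the islet response to pregnancy hormones had the highest median of 37 lists (10 of 14 rose). Of 13 guanylate-binding proteins and relatives 4 rose, and the NF-kB feedback gene Tnip1 and survival gene Birc3 rose too. Gbp8 is counted in both of these lists. The lists were chosen with earlier results of these data known, so their ranks and counts are a description. Genes that fell were few and included the transcription factor Foxa2. In limma's fit, 66 of 22180 genes passed at an adjusted p under 0.05 (0.298%), 62 of them higher (0.28%) and 4 lower (0.018%). At an unadjusted p under 0.05 there were 1429 genes (6.44%), 781 higher (3.52%) and 648 lower (2.92%). Of the 62, 19 rose more than 4-fold, 33 rose 2-fold to 4-fold and 10 rose less than 2-fold, with a median log2 fold change of 1.63. In all 66 genes the 3 knockouts and 3 controls did not overlap, where 4.68% of all genes lay wholly higher and 4.82% wholly lower. The 66 were called on these same arrays, so this separation is a description and no further support. The median log2 fold change of all genes was -0.01.

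The spread for these tests was pooled over 6 groups, and the calls rested on that pooling: with only the 6 chow arrays in the fit, limma passed 0 genes (smallest adjusted p = 0.123, 944 genes at an unadjusted p under 0.05), and with the 9 chow arrays it passed 5. Adjusted p in the 66 genes ranged from 0.00295 to 0.0417, where the ubiquitin ligase Cblc lay just inside the threshold and Bnip5 just outside it, at 0.0507.

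**Figure D2:**
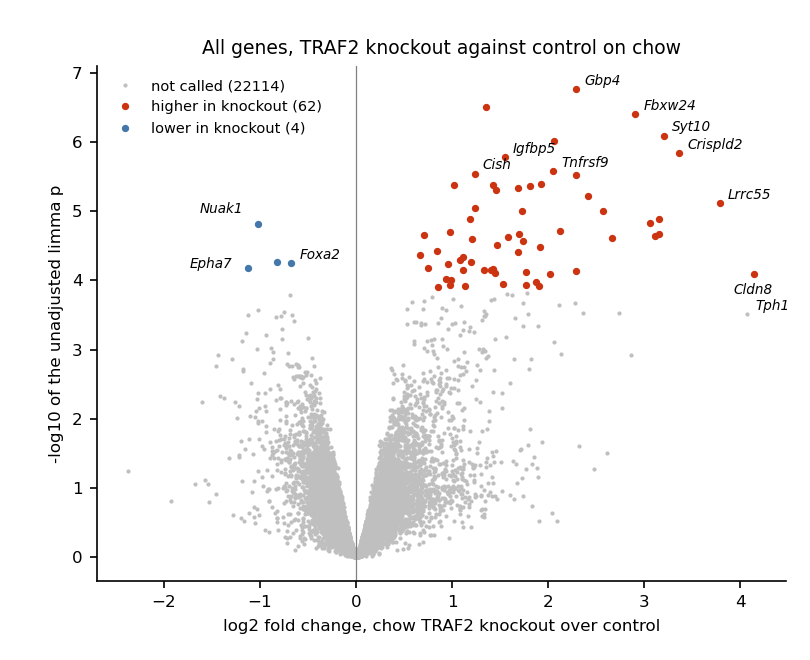
Each point is 1 of 22180 genes, with the log2 fold change of chow TRAF2 knockout over control on the horizontal axis and -log10 of the unadjusted limma p on the vertical axis. The 62 higher genes (red) reach 4.15 for Cldn8, the 4 lower genes (blue) reach -1.13 for Epha7, and Tph1, at 4.07, was not called.

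Traf2 itself was measured by probe set 17382626, whose position relative to the deleted exons is not given, so that it does not check the genotype. Its values were 7.16, 7.34 and 7.04 in controls 1 to 3 and 7.5, 7.23 and 7.22 in knockouts 1 to 3, a log2 fold change of 0.14 ± 0.14 (SE, adjusted p = 0.98). The groups overlapped. Map3k14, which encodes NIK, measured 5.17, 5.33 and 5.2 in controls 1 to 3 and 5.71, 5.54 and 5.68 in knockouts 1 to 3. It did not pass (0.41 ± 0.21, adjusted p = 0.814), although every knockout lay above every control. NIK is controlled chiefly by degradation of the protein, which arrays do not measure.

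Among the 9 measured components of the non-canonical pathway, Birc3 rose, where 0.28% of all genes rose, and no other passed. Birc3, an inhibitor of apoptosis in the complex that restrains NIK, measured 6.33, 6.94 and 6.88 in controls 1 to 3 and 8.09, 7.65 and 7.38 in knockouts 1 to 3. It rose by 0.99 ± 0.19 (SE, adjusted p = 0.0375), with knockout 1 highest and control 1 lowest. Leaving out 1 array in turn, it passed without control 3 (adjusted p = 0.0481) and had adjusted p from 0.0518 without knockout 3 to 0.188 without control 1 in the other fits. Nfkb2, the precursor that NIK activity causes to be processed, measured 6.16, 7.64 and 7.53 in the controls and 8.31, 7.98 and 7.74 in the knockouts, a difference of 0.9 ± 0.29 (SE, adjusted p = 0.412). Its partner Relb measured 5.45, 6.03 and 6.06 in the controls and 6.59, 6.24 and 6.15 in the knockouts, a difference of 0.48 ± 0.21 (SE, adjusted p = 0.733). Control 1 was the lowest control for both. The groups did not overlap for these 4 genes, Map3k14 included, which makes 4 of 9, against 4.68% of all genes with knockouts wholly higher. The remaining members, Birc2, Traf2, Otub1, Nlrp12 and Otud7b, had differences from -0.02 to 0.25. The list's median was 0.25.

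Among the genes that passed and could be named, Cldn8 and Lrrc55 had the largest fold changes. Cldn8 (probe set 17331828), a claudin of tight junctions, measured 6.05, 4.79 and 9.51 in controls 1 to 3 and 10.26, 11.12 and 11.43 in knockouts 1 to 3, a log2 fold change of 4.15 ± 0.79 (SE, adjusted p = 0.031). Lrrc55 (probe set 17387565), whose protein modulates BK-type potassium channels, measured 4.94, 3.53 and 7.12 in controls 1 to 3 and 8.92, 8.56 and 9.46 in knockouts 1 to 3, a log2 fold change of 3.78 ± 0.58 (SE, adjusted p = 0.00952). A dimmer probe set of Lrrc55 read 5.57 in controls and 6.37 in knockouts on average, a difference of 0.80. Crispld2 (probe set 17506206), a secreted protein, measured 5.14, 6.04 and 7.82 in controls 1 to 3 and 9.89, 9.38 and 9.81 in knockouts 1 to 3, a log2 fold change of 3.36 ± 0.45 (SE, adjusted p = 0.00523). In these 3 genes control 3 was the highest control and lay below the lowest knockout.

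Syt10 (probe set 17320571), a calcium sensor of vesicle fusion, measured 4.32, 4.23 and 5.65 in controls 1 to 3 and 7.33, 7.94 and 8.53 in knockouts 1 to 3, a log2 fold change of 3.2 ± 0.41 (SE, adjusted p = 0.00427). Rasgrp1 (probe set 17389647), a diacylglycerol-sensitive activator of Ras, measured 4.64, 4.18 and 6.84 in controls 1 to 3 and 9.0, 7.81 and 8.32 in knockouts 1 to 3, a log2 fold change of 3.16 ± 0.51 (SE, adjusted p = 0.0125). Sftpd (probe set 17305243), a collectin of innate defence, measured 4.74, 5.16 and 7.33 in controls 1 to 3 and 8.13, 9.04 and 9.4 in knockouts 1 to 3, a log2 fold change of 3.12 ± 0.52 (SE, adjusted p = 0.0161). Knockout 3 was highest for Syt10 and Sftpd and knockout 1 for Rasgrp1, and control 3 led the controls in each. Fbxw24 (probe set 17531418), an F-box protein, measured 3.28, 3.37 and 5.03 in controls 1 to 3 and 6.41, 6.96 and 7.03 in knockouts 1 to 3, a log2 fold change of 2.91 ± 0.35 (SE, adjusted p = 0.00295). Krtap13-1 (probe set 17326914), a keratin-associated protein gene, measured 3.91, 3.54 and 5.7 in controls 1 to 3 and 6.22, 7.3 and 7.33 in knockouts 1 to 3, a log2 fold change of 2.57 ± 0.4 (SE, adjusted p = 0.0104). The control means of Syt10, Fbxw24 and Krtap13-1 lay below the median of every array, as did 11 of the 62, so their fold changes rest on low control readings.

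Receptors and regulators made up another part of the largest rises. Gfra3 (probe set 17353509), the co-receptor for the neurotrophic factor artemin, measured 8.25, 6.57 and 8.63 in controls 1 to 3 and 10.04, 10.15 and 10.49 in knockouts 1 to 3, a log2 fold change of 2.41 ± 0.36 (SE, adjusted p = 0.00784). Adgrg6 (probe set 17239435), an adhesion G protein-coupled receptor, measured 5.27, 4.44 and 6.14 in controls 1 to 3 and 7.4, 7.65 and 7.69 in knockouts 1 to 3, a log2 fold change of 2.29 ± 0.32 (SE, adjusted p = 0.00663). Spic (probe set 17243943), an Ets family transcription factor, measured 4.5, 3.88 and 5.53 in controls 1 to 3 and 6.13, 7.21 and 7.45 in knockouts 1 to 3, a log2 fold change of 2.29 ± 0.43 (SE, adjusted p = 0.0309). The 3 knockouts of Gfra3 and of Adgrg6 lay close together, with SDs of 0.23 and 0.16, while their controls had SDs of 1.09 and 0.85. The control mean of Spic lay below the median of every array. Spic passed in 2 of the 6 fits that left out 1 array.

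**Figure D3:**
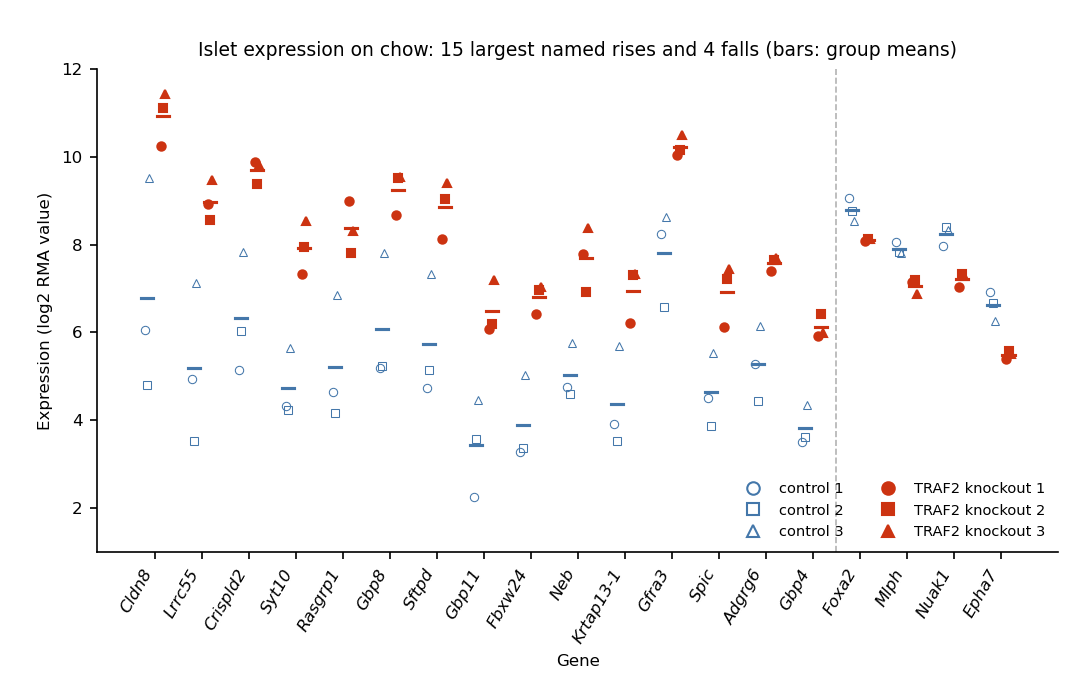
Log2 expression (vertical axis) in each of the 6 chow arrays for the 15 largest rises and the 4 falls among the genes that could be named, with open blue symbols for controls, filled red symbols for knockouts and bars for group means. The knockouts lie wholly above or wholly below the controls in every gene shown, and control 3 (blue triangle) is nearest the knockouts in most of the rises.

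Of the 14 measured genes known to respond to pregnancy or lactogens in islets, 10 rose, 0 fell and 14 of 14 had a positive difference, with a median of 1.98 against -0.01 for all genes. Of all genes, 46.6% had a positive difference and 0.28% rose. This list was chosen with earlier results of these data known, so its rank and counts are a description. Cldn8, Lrrc55, Gbp8, Neb, Tph2, Igfbp5, Socs2, Ivd, Cish and Wipi1 were the 10. Neb (probe set 17385099), the giant muscle protein nebulin, measured 4.75, 4.61 and 5.76 in controls 1 to 3 and 7.8, 6.92 and 8.38 in knockouts 1 to 3, a log2 fold change of 2.66 ± 0.45 (SE, adjusted p = 0.0163). Igfbp5, a binding protein for insulin-like growth factors, measured 7.75, 7.77 and 7.8 in controls 1 to 3 and 9.55, 9.04 and 9.37 in knockouts 1 to 3, a log2 fold change of 1.55 ± 0.21 (SE, adjusted p = 0.00523). Its 3 controls had an SD of 0.021, and without control 3 its log2 fold change was 1.56. Wipi1, which acts in autophagy, measured 8.36, 8.05 and 8.48 in controls 1 to 3 and 9.99, 9.09 and 9.44 in knockouts 1 to 3, a log2 fold change of 1.21 ± 0.21 (SE, adjusted p = 0.0163).

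Feedback inhibitors of the STAT5 pathway rose within this set. Socs2 measured 10.1, 8.98 and 9.85 in controls 1 to 3 and 11.12, 10.94 and 11.15 in knockouts 1 to 3, a log2 fold change of 1.42 ± 0.21 (SE, adjusted p = 0.00676), and its other probe set had a difference of 0.90. Cish, whose promoter with 2 STAT motifs is shown above, measured 5.95, 5.52 and 6.22 in controls 1 to 3 and 6.75, 7.28 and 7.36 in knockouts 1 to 3, a log2 fold change of 1.23 ± 0.17 (SE, adjusted p = 0.00663), and 1.28 by its other probe set. For both, control 2 was the lowest array and the groups did not overlap. Ivd, which also holds a STAT motif, measured 9.1, 8.4 and 9.18 in controls 1 to 3 and 9.96, 10.07 and 10.34 in knockouts 1 to 3, a log2 fold change of 1.23 ± 0.19 (SE, adjusted p = 0.0104). Of the 9 measured genes of lactogen and growth hormone signalling, Socs2 and Cish were the 2 that passed, against 0.298% of all genes. The median was 0.36. Stat5a and Stat5b, which transmit the signal, had differences of -0.06 and -0.11, the growth hormone receptor Ghr -0.31, and Jak2 0.32. Socs3, another feedback inhibitor of cytokine receptors, measured 6.02, 7.11 and 7.04 in the controls and 8.03, 7.66 and 8.17 in the knockouts and did not pass (1.23 ± 0.29, adjusted p = 0.103).

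The other 4 of the 14 did not pass. Tph1, the rate-limiting enzyme of serotonin synthesis outside the brain, measured 4.15, 4.12 and 8.3 in controls 1 to 3 and 7.87, 10.16 and 10.75 in knockouts 1 to 3. Its difference was 4.07 ± 0.88 (SE, adjusted p = 0.0738), and the groups overlapped because control 3 read above knockout 1. The decoy receptor Tnfrsf11b measured 7.04, 7.92 and 9.43 in the controls and 9.14, 10.72 and 10.72 in the knockouts, and again control 3 lay above knockout 1. Its difference was 2.06 ± 0.5 (SE, adjusted p = 0.127). The matrix protein Matn2 differed by 2.36 ± 0.51 (SE, adjusted p = 0.0738) and the peroxisomal enzyme Ehhadh by 0.88 ± 0.24 (SE, adjusted p = 0.245), with no overlap between groups. Without control 3, and likewise without knockout 1 or without both, 13 of the 14 passed. Without control 1 the count was 4, without control 2 it was 5, without knockout 2 it was 7 and without knockout 3 it was 1.

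Of 21 measured genes for serotonin synthesis, storage, breakdown and receptors, Tph2 rose and 0 fell, against 0.28% and 0.018% of all genes. The median was -0.04. Tph2, the tryptophan hydroxylase known from neurons, measured 4.62, 4.85 and 5.37 in controls 1 to 3 and 6.19, 6.95 and 7.41 in knockouts 1 to 3, a log2 fold change of 1.9 ± 0.38 (SE, adjusted p = 0.041). It passed without control 3 or knockout 1, and had adjusted p from 0.128 without knockout 2 to 0.215 without knockout 3 in the other fits that left out 1 array. The next enzyme, Ddc, measured 9.92, 9.57 and 9.44 in the controls and 9.0, 9.64 and 10.02 in the knockouts, with overlap (-0.09 ± 0.27, adjusted p = 1). The vesicle transporters Slc18a1 and Slc18a2 differed by 0.38 and -0.41, and the breakdown enzymes Maoa and Maob by 0.25 and -0.34; none of these passed.

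Guanylate-binding proteins, interferon-inducible GTPases that act against microbes inside cells, were higher in the knockouts in part of the family. Of 13 measured guanylate-binding proteins and immunity-related GTPases 4 rose and 0 fell, against 0.28% and 0.018% of all genes. All 13 had positive differences, against 46.6% of all genes, with a median of 0.54. Gbp8 (probe set 17450434) measured 5.2, 5.25 and 7.81 in controls 1 to 3 and 8.67, 9.51 and 9.55 in knockouts 1 to 3, a log2 fold change of 3.16 ± 0.53 (SE, adjusted p = 0.0161). Gbp11 (probe set 17450515) measured 2.25, 3.57 and 4.47 in controls 1 to 3 and 6.07, 6.2 and 7.19 in knockouts 1 to 3, a log2 fold change of 3.06 ± 0.5 (SE, adjusted p = 0.0135). Gbp4 (probe set 17450461) measured 3.51, 3.62 and 4.35 in controls 1 to 3 and 5.93, 6.43 and 5.99 in knockouts 1 to 3, a log2 fold change of 2.29 ± 0.26 (SE, adjusted p = 0.00295). Control means of Gbp11 and Gbp4 lay below every array's median, and Gbp4 and Fbxw24 shared the smallest adjusted p among the named genes. Gbp10 measured 5.49, 5.82 and 6.7 in controls 1 to 3 and 7.79, 7.73 and 7.59 in knockouts 1 to 3, a log2 fold change of 1.7 ± 0.28 (SE, adjusted p = 0.0161). These genes are close copies of each other in part, so how the signal divides among them is uncertain. Gbp3, Gbp5, Iigp1 and Igtp were highest in knockout 1, at 5.39, 6.58, 8.18 and 8.24, overlapped between groups and did not pass. The 4 that passed became 5 without control 3, 2 without knockout 2 and 1 without each of knockout 3, control 1 and control 2. The list score was 1.02 in knockout 1, 0.282 and 0.222 in the other knockouts and -0.962 to -0.419 in controls.

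The list of interferon-stimulated genes had 0 of 24 that passed by limma, with a median of 0.41. At an unadjusted p under 0.05, 4 were higher and 1 lower, against 3.52% and 2.92% of all genes. Irf7, a master regulator of the interferon response, measured 6.44, 6.91 and 6.69 in controls 1 to 3 and 9.26, 6.46 and 6.33 in knockouts 1 to 3, a difference of 0.67 ± 0.54 (SE, adjusted p = 0.951). Knockout 1 was the high array, and the list score was 0.843 there against -0.272 and -0.221 in the other knockouts and -0.655 to 0.049 in controls. Irf1, a transcription factor induced by interferon, differed by 0.36 ± 0.25 (SE, adjusted p = 0.913).

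Among 31 ligands and receptors of the TNF family 2 rose and 0 fell, against 0.28% and 0.018% of all genes. The median was 0.44. The list score overlapped between groups: knockout 1 stood apart at 0.653 and control 1 at -0.619, while knockouts 2 and 3 read 0.0667 and -0.0364 and controls 2 and 3 read -0.152 and -0.0317. Tnfrsf9, whose promoter with the NF-kB motif is printed above, measured 5.82, 6.56 and 7.21 in controls 1 to 3 and 9.24, 8.29 and 8.23 in knockouts 1 to 3, a log2 fold change of 2.05 ± 0.29 (SE, adjusted p = 0.00663). Ngfr, the low-affinity neurotrophin receptor, measured 5.36, 5.57 and 5.62 in controls 1 to 3 and 6.32, 6.59 and 6.43 in knockouts 1 to 3, a log2 fold change of 0.93 ± 0.18 (SE, adjusted p = 0.0363). Knockout 1 was highest for Tnfrsf9 and knockout 2 for Ngfr. Ngfr passed in 0 of the 6 fits that left out 1 array, with adjusted p from 0.0545 without control 3 to 0.178 without control 1. Ngfr was also the 1 of 9 Schwann and neural markers that passed, while the Schwann markers S100b and Cdh19 lay below the median of every array.

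Of 17 canonical NF-kB and feedback genes, Tnip1 rose and 0 fell, against 0.28% and 0.018% of all genes. Positive differences were found in 16, against 46.6% of all genes, and the median was 0.43. The list score was 0.582 in knockout 1 and -0.454 in control 1, the farthest arrays, against 0.178 and 0.0846 in the other knockouts and -0.0288 and -0.13 in the other controls. Tnip1 measured 6.69, 7.1 and 7.23 in controls 1 to 3 and 7.93, 7.6 and 7.72 in knockouts 1 to 3, a log2 fold change of 0.74 ± 0.14 (SE, adjusted p = 0.0302). It passed without control 3 or knockout 2, and had adjusted p from 0.0993 without control 2 to 0.137 without control 1 in the other fits that left out 1 array. The groups did not overlap, knockout higher, in 9 of the 17, against 4.68% of all genes. They included inhibitors that NF-kB itself induces: Nfkbia, at 8.16, 8.68 and 8.64 in the controls and 9.21, 9.28 and 9.09 in the knockouts, differed by 0.7 ± 0.19 (SE, adjusted p = 0.245), and Tnfaip3, at 5.63, 6.4 and 6.1 in the controls and 7.52, 6.93 and 6.79 in the knockouts, by 1.04 ± 0.4 (SE, adjusted p = 0.655). These 2 did not pass, and they were chosen after their values were seen. Knockout 1 was the highest array for Tnfaip3 and control 1 the lowest for both.

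Other genes that passed spanned signalling, channels and metabolism, with log2 fold changes from 0.66 to 2.13. Among signalling genes, the kinase Mapk4 rose by 1.92 ± 0.28 (SE, adjusted p = 0.00676) and the receptor Fgfr2 by 1.58 ± 0.27 (SE, adjusted p = 0.0161), and the Ras-like Rerg by 2.13 ± 0.35 (SE, adjusted p = 0.0161). Gem, a GTPase that inhibits calcium channels, measured 6.97, 7.0 and 7.57 in controls 1 to 3 and 8.89, 8.54 and 9.39 in knockouts 1 to 3 and rose by 1.77 ± 0.33 (SE, adjusted p = 0.031). Casp4, an inflammatory caspase, measured 3.92, 4.51 and 4.88 in controls 1 to 3 and 6.75, 5.98 and 5.89 in knockouts 1 to 3 and rose by 1.77 ± 0.35 (SE, adjusted p = 0.0407), with its control mean below every array's median. Cebpd, a transcription factor of acute responses, measured 4.93, 5.54 and 5.51 in controls 1 to 3 and 6.82, 6.0 and 7.17 in knockouts 1 to 3 and rose by 1.34 ± 0.25 (SE, adjusted p = 0.0302).

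Channel and transmitter genes were a small share of the rises. Of 37 ion channel subunits 1 rose and 0 fell, against 0.28% and 0.018% of all genes, with a median of -0.15. That gene was Kcnj5, a G protein-gated potassium channel subunit, which measured 4.48, 4.83 and 5.22 in controls 1 to 3 and 6.44, 6.72 and 6.78 in knockouts 1 to 3, a log2 fold change of 1.81 ± 0.26 (SE, adjusted p = 0.00676). Outside the list, the potassium channel Kcnk10 measured 5.04, 5.44 and 6.13 in controls 1 to 3 and 6.71, 7.46 and 7.62 in knockouts 1 to 3 and rose by 1.72 ± 0.27 (SE, adjusted p = 0.0104). Gad2, which makes GABA and is an autoantigen of type 1 diabetes, measured 4.98, 4.95 and 5.63 in controls 1 to 3 and 6.34, 6.98 and 6.59 in knockouts 1 to 3 and rose by 1.45 ± 0.27 (SE, adjusted p = 0.031). Penk, the precursor of enkephalins, measured 5.73, 5.48 and 5.56 in controls 1 to 3 and 7.02, 6.58 and 7.56 in knockouts 1 to 3 and rose by 1.47 ± 0.25 (SE, adjusted p = 0.0192). For Kcnj5 and Kcnk10 the values of the controls and of the knockouts each spanned about 1 log2 unit or less.

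Metabolic genes that passed included enzymes of branched-chain amino acids. Bcat1, the cytosolic aminotransferase of these amino acids, measured 5.16, 5.34 and 5.72 in controls 1 to 3 and 6.62, 7.05 and 7.59 in knockouts 1 to 3 and rose by 1.68 ± 0.25 (SE, adjusted p = 0.00676), beside Ivd above. Ogdhl, a relative of an enzyme of the citric acid cycle, measured 9.7, 9.59 and 9.79 in controls 1 to 3 and 11.58, 10.96 and 10.9 in knockouts 1 to 3 and rose by 1.45 ± 0.21 (SE, adjusted p = 0.00693). Slc16a3, a lactate exporter, measured 5.0, 6.21 and 6.06 in controls 1 to 3 and 7.6, 6.95 and 6.99 in knockouts 1 to 3 and rose by 1.42 ± 0.27 (SE, adjusted p = 0.0302). The amino acid transporter Slc7a7 rose by 1.87 ± 0.36 (SE, adjusted p = 0.0393) and the inositol transporter Slc2a13 by 1.2 ± 0.22 (SE, adjusted p = 0.0277). Controls of Ogdhl had an SD of 0.097, and knockout 1 was its highest array.

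Further genes that rose had varied roles. Dipk1a, a kinase-like protein of the endoplasmic reticulum, measured 5.64, 6.37 and 7.05 in controls 1 to 3 and 8.9, 8.18 and 8.16 in knockouts 1 to 3 and rose by 2.06 ± 0.27 (SE, adjusted p = 0.00427). Adgrf1, an adhesion G protein-coupled receptor like Adgrg6, measured 3.62, 4.07 and 4.39 in controls 1 to 3 and 5.55, 5.78 and 6.8 in knockouts 1 to 3 and rose by 2.02 ± 0.38 (SE, adjusted p = 0.031). Gpr182, an atypical chemokine receptor, measured 6.1, 6.0 and 6.02 in controls 1 to 3 and 7.25, 6.97 and 6.95 in knockouts 1 to 3 and rose by 1.02 ± 0.15 (SE, adjusted p = 0.00676). Dipk1a and Gpr182 passed whichever 1 of the 6 arrays was left out, whereas the control mean of Adgrf1 lay below the median of every array. Pros1, the plasma anticoagulant protein S, rose by 1.53 ± 0.3 (SE, adjusted p = 0.0407). Ikzf4, a zinc finger transcription factor of the Ikaros family, rose by 1.13 ± 0.22 (SE, adjusted p = 0.041), and Mctp1, a calcium-binding membrane protein, by 1.68 ± 0.3 (SE, adjusted p = 0.0217). Tmem47, Srbd1, Dnah8, Popdc3, Plppr5, Sh2d4b, Tmem40, Washc5, Clmp and Armc10 rose by 0.66 (Armc10) to 1.91 (Tmem47). Control means of Dnah8 and Popdc3 lay below the median of every array. Other probe sets of Tmem47 and Clmp, both dimmer, differed by 0.44 and 0.15.

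The 4 genes that fell changed less than most of those that rose. Foxa2 (probe set 17392561), a transcription factor of endoderm and of mature islets, measured 9.05, 8.77 and 8.54 in controls 1 to 3 and 8.07, 8.13 and 8.12 in knockouts 1 to 3, a log2 fold change of -0.68 ± 0.12 (SE, adjusted p = 0.0277). Its 3 knockouts had an SD of 0.029. Mlph (probe set 17215629), an adaptor that links Rab27a vesicles to myosin, measured 8.06, 7.83 and 7.8 in controls 1 to 3 and 7.15, 7.19 and 6.87 in knockouts 1 to 3, a log2 fold change of -0.83 ± 0.15 (SE, adjusted p = 0.0277). Nuak1 (probe set 17243604), a kinase related to AMPK, measured 7.97, 8.4 and 8.34 in controls 1 to 3 and 7.03, 7.33 and 7.28 in knockouts 1 to 3, a log2 fold change of -1.02 ± 0.17 (SE, adjusted p = 0.0135). Epha7 (probe set 17412296), an ephrin receptor, measured 6.91, 6.68 and 6.26 in controls 1 to 3 and 5.39, 5.59 and 5.5 in knockouts 1 to 3, a log2 fold change of -1.13 ± 0.21 (SE, adjusted p = 0.0302). No knockout overlapped a control in these genes. Foxa2 and Epha7 passed in 1, Mlph in 2 and Nuak1 in 4 of the 6 fits that left out 1 array.

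Lists of beta cell genes had medians below that of all genes, and few of their members passed. Of 23 beta cell transcription factors Foxa2 fell and 0 rose, against 0.018% and 0.28% of all genes. In 20 the difference was negative, and the median was -0.29. At an unadjusted p under 0.05, 7 were lower, against 2.92% of all genes. Isl1 (10.4, 9.58 and 9.36 in the controls and 9.18, 9.28 and 9.22 in the knockouts) and Mnx1 (7.31, 7.02 and 6.64 in the controls and 6.11, 6.5 and 6.62 in the knockouts), both of islet development, were lower in every knockout than in every control and did not pass (-0.55 and -0.58). Of 19 genes of glucose sensing and maturity 0 passed by limma, 4 were lower at an unadjusted p under 0.05 and the median was -0.23. Slc2a2 differed by -1.22 ± 0.52 (SE, adjusted p = 0.729), with knockout 1 the low array, and G6pc2, which opposes glucokinase, by -0.12 ± 0.21 (SE, adjusted p = 0.997). Insulin, prohormone processing and granule cargo genes had 0 of 16 that passed by limma and a median of -0.11. At an unadjusted p under 0.05, 2 were higher and 1 lower, against 3.52% and 2.92% of all genes. Ins2 differed by -0.21 ± 0.17 (SE, adjusted p = 0.958) and Iapp by -0.02 ± 0.09 (SE, adjusted p = 1). Of 24 docking and exocytosis genes, Mlph fell and 0 rose, against 0.018% and 0.28% of all genes, and the median was -0.13. Glucagon (Gcg) and somatostatin (Sst), from the other endocrine cells, differed by 0.00 and -0.02. The beta cell factor score was -0.343 in knockout 1, 0.036 and 0.179 in the other knockouts and 0.151 to 0.325 in controls.

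**Figure D4:**
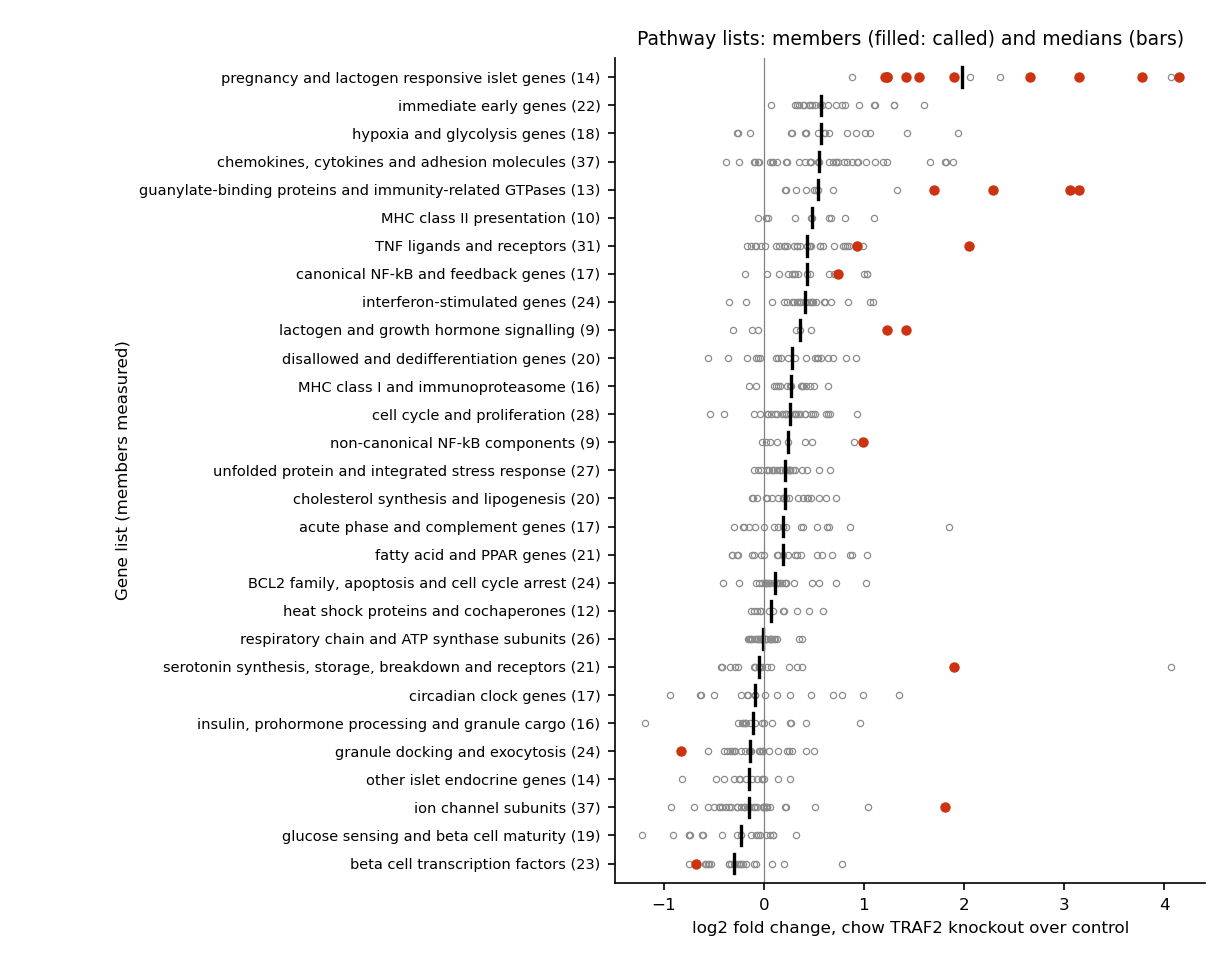
Members of 29 pathway lists (open circles, not called; filled red circles, called at an adjusted p under 0.05) by log2 fold change of chow TRAF2 knockout over control, with black bars for list medians and the number measured in brackets. The pregnancy and lactogen list has a median of 1.98 and 10 of 14 members called, and beta cell transcription factors have the lowest median, at -0.29.

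In 26 of 37 lists no member passed by limma. Immediate early genes, which respond within minutes to stimuli, had 22 of 22 positive differences and a median of 0.57, with 5 of 22 higher at an unadjusted p under 0.05, against 3.52% of all genes. Their score was -0.845 in control 1, and the 0.105 and 0.0744 of controls 2 and 3 lay above the 0.0363 of knockout 1, with 0.488 and 0.89 in knockouts 2 and 3. Fos measured 7.29, 6.23 and 6.08 in controls 1 to 3 and 6.35, 7.11 and 8.98 in knockouts 1 to 3 and Fosb 7.15, 8.38 and 8.38 in controls 1 to 3 and 6.15, 10.23 and 11.44 in knockouts 1 to 3, with overlap and the highest values in knockout 3. Hypoxia and glycolysis genes had 11 of 18 higher at an unadjusted p under 0.05 and a median of 0.57. Their score was 0.864 in knockout 1 and -0.011 and 0.0835 in knockouts 2 and 3, against -0.569 in control 1 and -0.128 and -0.158 in controls 2 and 3. Slc2a1, a glucose transporter induced by hypoxia, measured 8.42, 10.21 and 10.33 in controls 1 to 3 and 11.46, 10.87 and 10.92 in knockouts 1 to 3, a difference of 1.43 ± 0.39 (SE, adjusted p = 0.235), but 0.24 by its other probe set. Chemokines, cytokines and adhesion molecules had 10 of 37 higher and 1 lower at an unadjusted p under 0.05 and a median of 0.55, and the neutrophil attractants Cxcl1 and Cxcl2 differed by 0.55 and 0.65. The score of this list overlapped between groups, at 0.61, 0.116 and -0.374 in knockouts 1 to 3 and -1.01, -0.214 and -0.271 in controls 1 to 3. Control 1 was the lowest array for Slc2a1, Cxcl1 and Cxcl2.

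Lists with medians nearer that of all genes included the unfolded protein response (0.22 over 27 genes, with Hspa5 at 0.11), cholesterol synthesis (0.21 over 20, with Srebf2 at 0.03) and the respiratory chain (0.00 over 26, with Ndufa4 at 0.39). Cell cycle genes had a median of 0.26 over 28. Mki67, a marker of dividing cells, measured 5.56, 5.49 and 5.27 in controls 1 to 3 and 7.83, 5.64 and 5.66 in knockouts 1 to 3, where knockout 1 was the 1 high array (0.93 ± 0.49, adjusted p = 0.825). Disallowed genes, which mature beta cells keep low, had 4 of 20 higher at an unadjusted p under 0.05, against 3.52% of all genes, and a median of 0.28. The lactate enzyme Ldha measured 4.76, 5.14 and 5.35 in the controls and 6.78, 5.66 and 5.56 in the knockouts, a difference of 0.92 ± 0.29 (SE, adjusted p = 0.396).

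Markers of other cell types were set beside these groups, and their part in the results was not tested beyond the fits named here. Summed linear levels of 19 lymphocyte markers were 663 to 796 in controls and 646 to 5310 in knockouts, the highest in knockout 1. Of the 19, 0 passed by limma and 1 had an unadjusted p under 0.05, against 6.44% of all genes. The 22 myeloid markers summed to 2060 to 2310 in controls and 2540 to 6760 in knockouts, so the groups did not overlap, and Cd163, Clec10a, S100a8 and S100a9 lay below every array's median. Cd68, a macrophage marker, measured 7.17, 7.89 and 7.62 in controls 1 to 3 and 9.98, 7.99 and 7.94 in knockouts 1 to 3. Of the 22, 0 passed by limma and 3 were higher at an unadjusted p under 0.05, against 3.52% of all genes. With the myeloid score as a covariate 39 genes passed, 34 of them among the 66. In that fit 7 pregnancy and lactogen genes passed in place of 10, and 2 guanylate-binding proteins and relatives in place of 4. Birc3 (adjusted p = 0.112), Tnip1 (0.113), Tph2 (0.133), Ngfr (0.139) and Foxa2 (0.0631) no longer passed with the myeloid score. With the lymphocyte score 56 genes passed, 48 of them among the 66, with 11 pregnancy and lactogen genes and 4 guanylate-binding proteins and relatives. Birc3 (adjusted p = 0.0662), Tnip1 (0.0711), Tph2 (0.0664), Ngfr (0.081) and Foxa2 (0.0577) did not pass there either. These genes kept their direction in both fits. Acinar markers summed to 86500 to 122000 in controls and 56400 to 116000 in knockouts, and ductal markers to 4270 to 12800 and 7780 to 11900. With the ductal score as a covariate 114 genes passed, all 66 among them.

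The HFD arrays gave the same genotype contrast in other samples but within the same fit. Each gene had the same pooled spread in both contrasts, as with Syt10, whose SE was 0.41 in each. A gene called on chow partly for a small spread passes more easily on HFD. Counts of genes that pass on HFD are therefore not independent of the chow calls. The HFD groups differed in sex, with 3 female control arrays and 2 female and 1 male knockout arrays. On HFD 56 genes passed (0.252%), 54 higher (0.243%) and 2 lower (0.00902%). Of the 62 genes higher on chow, 28 also passed as higher on HFD, 58 had a positive difference (49.3% of all genes), 54 were higher at an unadjusted p under 0.05 (3.07% of all genes) and 57 had no overlap, against 7.83% of all genes with HFD knockouts wholly higher. The 28 made up 42.4% of the chow calls and were 28 of the 56 HFD calls. The median HFD difference of the 62 was 1.24, and that of all genes was 0.00. Of the 54 genes higher on HFD, 53 had a positive difference on chow.

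Lrrc55 read 3.61 to 4.08 in HFD controls and 8.74 to 9.07 in HFD knockouts (5.0 ± 0.58, adjusted p = 0.00132), and Syt10 read 4.32 to 4.69 in HFD controls and 8.0 to 8.09 in HFD knockouts (3.53 ± 0.41, adjusted p = 0.00132). Sftpd read 4.8 to 5.13 in HFD controls and 8.8 to 9.39 in HFD knockouts (4.07 ± 0.52, adjusted p = 0.00241). In these 3 genes the HFD controls lay closer together than the chow controls, and no HFD control read as high as chow control 3. Cldn8 read 7.51 to 8.96 in HFD controls and 11.3 to 11.66 in HFD knockouts and did not pass there (3.31 ± 0.79, adjusted p = 0.128), although the groups did not overlap. Of the pregnancy and lactogen list 10 of 14 rose on HFD, with a median of 2.14. Tph1, with overlap on chow, had an HFD difference of 6.88 (adjusted p = 0.00241). The 4 genes that fell on chow had HFD differences of -0.18 for Foxa2, -0.39 for Mlph, -0.12 for Nuak1 and -0.22 for Epha7, and 0 of them passed.

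Whether the knockout effect differed between diets was tested as an interaction, and 0 of 22180 genes passed by limma (smallest adjusted p = 1). At an unadjusted p under 0.05 there were 628 genes (2.83%), among them 15 of the 66, with the smallest at 0.000183 for Gbp4. Gbp4 read 3.17 to 4.13 in HFD controls and 4.16 to 4.52 in HFD knockouts, a difference of 0.51 against 2.29 on chow. Gem read 6.3 to 6.95 in HFD controls and 6.79 to 6.96 in HFD knockouts (0.15 against 1.77), Slc16a3 5.83 to 6.15 in HFD controls and 5.63 to 6.03 in HFD knockouts (-0.23 against 1.42), and Cebpd 4.97 to 5.41 in HFD controls and 4.99 to 5.15 in HFD knockouts (-0.09 against 1.34). Birc3 had 0.12 against 0.99. In 7 of the 62 genes the HFD difference was below 0.3. These are values side by side, since no difference between diets passed. Gbp4 passed the interaction with array weights (adjusted p = 0.0146) and Slc16a3 with the ductal score as a covariate (adjusted p = 0.0307).

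**Figure D5:**
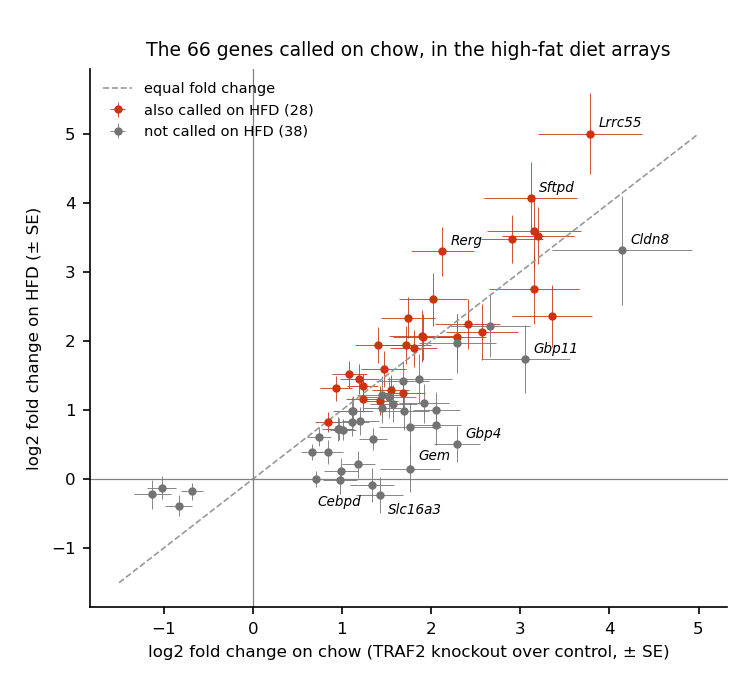
Log2 fold change on chow (horizontal axis) and on HFD (vertical axis) of the 66 genes called on chow, each with its SE, and a dashed line of equal change. Red points (28) were also called on HFD, and Gem, Cebpd and Slc16a3 lie between -0.23 and 0.15 on HFD.

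On chow, TRAF2 and TRAF3 knockouts were compared directly. Their contrasts against control share the 3 controls and are only set side by side: of the 62 genes, 49 also passed as higher in TRAF3 knockouts, against 6.33% of all genes, with a median difference of 1.25. In that contrast 11% of all genes passed. Directly compared, 446 genes differed (2.01%), 319 higher in TRAF3 knockouts (1.44%) and 127 lower (0.573%). Of the 66 genes, 4 were lower and 2 higher in TRAF3 knockouts. The lower ones were led by Syt10, at 5.63 to 6.26 in TRAF3 knockouts (-1.91 ± 0.41, adjusted p = 0.0258), and Igfbp5, at 8.05 to 8.65 (-0.98 ± 0.21, adjusted p = 0.0251). Dnah8, a motor protein of cilia and sperm tails, was also lower (-1.18 ± 0.26, adjusted p = 0.0317). The higher ones were Cblc, at 7.61 to 7.92 (0.8 ± 0.17, adjusted p = 0.0236), and the chemokine-binding receptor Gpr182, at 7.36 to 7.97 (0.61 ± 0.15, adjusted p = 0.0472). The 66 genes were chosen on the same TRAF2 knockout arrays, so a TRAF3 minus TRAF2 difference of those that rose leans negative, and of those that fell positive, through that choice. Their counts here are therefore a description and show no weaker effect of TRAF3 loss.

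Interferon-induced genes were among those lower in TRAF2 than in TRAF3 knockouts. Of 24 interferon-stimulated genes 18 were higher in TRAF3 knockouts and 0 lower, and of 13 guanylate-binding proteins and immunity-related GTPases 5 were higher and 0 lower. Bst2, an antiviral membrane protein, measured 5.34, 5.14 and 5.9 in the controls and 6.85, 5.3 and 5.33 in the knockouts of TRAF2, and 9.02 to 9.24 in TRAF3 knockouts (3.27 ± 0.31, adjusted p = 0.000146). Zbp1, a sensor of unusual nucleic acids, measured 9.04 to 9.33 there against 8.36, 5.13 and 5.03 in TRAF2 knockouts (3.03 ± 0.61, adjusted p = 0.0196), so knockout 1 was nearest. Irf7 measured 10.99 to 11.08 (3.69 ± 0.54, adjusted p = 0.0042). Oas1g and Gabrp were also among the 5 largest differences in this direction. Plekhh2, Cep290 and Cabcoco1 were higher in TRAF2 than in TRAF3 knockouts, with TRAF3 minus TRAF2 differences of -2.02 ± 0.3, adjusted p = 0.0051, of -1.62 ± 0.31, adjusted p = 0.0164 and of -1.62 ± 0.32, adjusted p = 0.0187. The count of 446 was 1708 without TRAF2 knockout 1, 53 without TRAF2 knockout 2, 33 without TRAF2 knockout 3, 72 without TRAF3 knockout 1 and 44 without TRAF3 knockout 3.

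Leaving out single arrays moved the count of chow calls widely. It was 89 without control 3, 72 without knockout 1 and 76 without both, but 22 without control 1, 24 without control 2, 45 without knockout 2 and 10 without knockout 3. Crispld2, Syt10, Fbxw24, Gbp4, Dipk1a, Tnfrsf9, Igfbp5, Ogdhl and Gpr182 were the 9 of 62 named genes that passed in all 6 of these fits. Without control 3 the log2 fold change of Cldn8 was 5.51, that of Lrrc55 4.74, that of Gbp8 4.02 and that of Rasgrp1 3.97. Without control 2 Cldn8 had 3.15 and Lrrc55 2.95, and without control 1 Crispld2 had 2.76. Without both control 3 and knockout 1, Igfbp5 had 1.44, Birc3 0.88 (adjusted p = 0.139) and Tnfrsf9 2.06. All 62 named genes kept their direction in these fits. Their groups did not overlap, so leaving out arrays could not have reversed them.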

How the data were processed

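Islet RNA of 18 samples in 6 groups of 3 was measured on single-colour whole-transcript arrays. The authors deposited log2 expression values made with RMA, which includes background correction, quantile normalization and probe set summarisation, and the submitters' processing notes also name limma; versions, and the genome build used, are not given in the sources used here. Of 41345 probe sets, 23521 had 1 gene symbol in the platform annotation, 1814 had several and 16010 had none. Genes with several probe sets (1082) were represented by the brightest, which gave 22180 genes. Group means were fitted in limma 3.58.1 (R 4.3.3) over all 18 arrays, with 12 residual degrees of freedom, and Benjamini-Hochberg adjustment over 22180 genes, at 0.05. All adjusted p-values are limma's. On simulated data 80% of 100 log2 changes of 1 and 98% of 100 log2 changes of 2 were recovered, and 6 of 21980 unchanged genes were called. The simulation drew independent normal values with 1 SD per gene in every group and no outlying arrays. It checks the fit and does not give the share of changes found in these data. Named genes were Traf2, Map3k14, the called genes with a settled symbol, up to 4 called members of each list or its first 2 measured members, and the 5 largest of each direction in the comparison of knockouts; other list members, Xist and Tph1 were named after their values were seen. The members and lists were chosen with earlier results of these data known. Sex was read from Xist. The number of arrays limits the precision. A transcript withheld from reporting is not reported here.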

Additional observations from a re-analysis of the deposited data

How the results depend on the processing

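The count of 66 genes on chow became 355 with array weights, 114 with the ductal score and 39 with the myeloid score as a covariate, the last chosen after the data were seen. It was 5 with the 9 chow arrays and 0 with only the 6 arrays compared. Leaving out 1 array in turn gave 10 to 89 genes. The 66 genes kept their direction in each of these fits. Their groups did not overlap, so only the fits with a covariate could have changed a direction. With array weights, 223 were higher and 132 lower, and with the acinar score 65 were higher and 30 lower, against 62 and 4. The HFD count of 56 became 194 with array weights and 101 with the ductal score, and 20 to 39 without 1 array, lowest without HFD control 3. The interaction count of 0 became 1 with array weights and 1 with the ductal score. The count of 446 genes between knockouts became 4172 with array weights, 793 without dim genes, 248 over every probe set, 3 with only the arrays compared, 13 with the 9 chow arrays, 36 with the ductal, 865 with the acinar and 905 with the lymphocyte score, and 33 to 1708 without 1 array. Fits with fewer arrays had fewer degrees of freedom for the spread; otherwise the cause was not tested. Other settings (median centring, repeated quantile normalization, eBayes trend, array sex) kept each count within 1.5 times. Same-numbered chow arrays did not pair, since their deviations correlated at 0.00914, 0.0301 and -0.329. With the replicate block 55 genes were called on chow, 58 on HFD, 0 for the interaction and 428 between knockouts, and with the block over the 6 chow arrays alone 0. Of 2711 values of named genes under other settings, 493 crossed the threshold. Among values called in the reported or the other fit, 0 reversed. Signs of genes called in neither fit were not counted, and some changed: Irf7 had 0.67 as reported and -0.29 without knockout 1. Genes near or below the array medians have uncertain fold changes.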

Other observations

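Antigen presentation genes were high in 1 knockout array. Of 16 genes of MHC class I presentation and the immunoproteasome 0 passed by limma, and the median log2 fold change was 0.27. An unadjusted p under 0.05 was reached by 2 of them, against 6.44% of all genes. Tap1, which carries peptides to MHC class I, measured 7.17, 7.22 and 7.0 in controls 1 to 3 and 8.9, 7.19 and 7.21 in knockouts 1 to 3, a difference of 0.64 ± 0.34 (SE, adjusted p = 0.844). Of 10 genes of MHC class II presentation 0 passed by limma (0 at an unadjusted p under 0.05), and the median was 0.48. The list score was 0.716 in knockout 1, -0.303 and -0.521 in knockouts 2 and 3 and -0.541 to -0.456 in controls. Ciita, the coactivator that switches on MHC class II genes, measured 5.61, 5.8 and 6.14 in controls 1 to 3 and 6.56, 5.71 and 5.41 in knockouts 1 to 3. Acute phase and complement genes had 0 of 17 that passed by limma (1 at an unadjusted p under 0.05) and a median of 0.19. Serpina3n, a secreted protease inhibitor, measured 5.57, 6.96 and 7.71 in controls 1 to 3 and 11.19, 6.98 and 7.62 in knockouts 1 to 3, a difference of 1.85 ± 0.81 (SE, adjusted p = 0.74).

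Circadian clock genes had 3 higher and 3 lower of 17 at an unadjusted p under 0.05, 0 that passed by limma and a median of -0.09. At that unadjusted threshold 3.52% of all genes were higher and 2.92% lower. Arntl, a core clock activator, measured 7.4, 5.85 and 5.94 in controls 1 to 3 and 7.78, 6.3 and 7.46 in knockouts 1 to 3, a difference of 0.79 ± 0.41 (SE, adjusted p = 0.833). Genes of the BCL2 family, apoptosis and cell cycle arrest had 4 higher and 1 lower of 24 at an unadjusted p under 0.05, 0 that passed by limma and a median of 0.12, with the survival gene Bcl2 at 0.06. Fatty acid and PPAR genes had a median of 0.19 over 21, and heat shock genes 0.07 over 12, with 2 and 1 at an unadjusted p under 0.05 and 0 that passed by limma. Among markers of vessels and stroma, 0 of 14 endothelial and 0 of 16 stellate and fibroblast genes passed by limma (0 and 1 at an unadjusted p under 0.05), with medians of 0.00 and 0.02. Endothelial Pecam1 differed by 0.01 and collagen Col1a1 by 0.68. Of 9 adipocyte markers 0 passed by limma and 0 had an unadjusted p under 0.05, and Adipoq and Lep lay below the median of every array.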
